A study of Rattus norvegicus with 9 samples.

Results

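This account covers 10 genes that govern how pyruvate enters the mitochondrial matrix and is turned into acetyl-CoA: the pyruvate dehydrogenase kinases Pdk1, Pdk2, Pdk3 and Pdk4, the phosphatases Pdp1 and Pdp2, the E1 subunits Pdha1 and Pdhb of the pyruvate dehydrogenase complex, and the mitochondrial pyruvate carrier subunits Mpc1 and Mpc2. They were picked by symbol out of 22050 listed rat genes after Pdk4 had been seen among the largest increases in cultures exposed to oxygen-glucose deprivation (OGD), so the difference between OGD and control cultures is described for them without a test. All 10 were found, each under a single identifier, and all 10 passed the filter on low counts. The cells were primary cortical neurons of Sprague Dawley rats at embryonic day 19, and RNA-seq was run on 9 libraries in 3 groups of 3. In the first group, OGD was combined with 100 ng/ml Wnt3a, a ligand of the Wnt/beta-catenin pathway, and 50 ng/ml Rspondin 1, a protein that amplifies Wnt responses, with 24 h of protein treatment (OGD + W/R). In the next, cells spent 4.5 h at 1% oxygen in medium lacking glucose and pyruvate and went back to normal oxygen and regular medium (OGD). Control cultures were untreated. The oxygen level and hours are given for OGD alone, the harvest time is not stated, and no group with Wnt3a and Rspondin 1 but without OGD was analysed here.

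The pyruvate dehydrogenase complex links glycolysis to the citrate cycle. Its E1 enzyme, built from alpha subunits (Pdha1) and beta subunits (Pdhb), is switched off when a kinase of the Pdk family phosphorylates the alpha subunit and switched on again when Pdp1 or Pdp2 removes the phosphate. The kinases differ in tissue distribution and control: Pdk2 is widely expressed and common in brain, Pdk1 is known as a target of the hypoxia-inducible factor HIF-1, and Pdk4 is known for its induction in fasting muscle and liver through PPAR and FOXO transcription factors. Pyruvate reaches the complex through a carrier in the inner mitochondrial membrane made of Mpc1 and Mpc2. Messenger RNA levels, the only quantity measured here, do not give the phosphorylation state of the complex.

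Promoter sequences are shown for the kinase genes whose messages stood furthest apart between the OGD groups and controls, Pdk4 and Pdk2 (higher after OGD) and Pdk1 (lower after OGD). They run 5′ to 3′ from 250 bases before to 50 bases after the gene start and come from RefSeq (rat build GRCr8), where 8 of the 10 genes had an entry; Pdp1 and Pdp2 did not match. Pdk4 lies at chr4:34568280-34568579 (minus strand), Pdk2 at chr10:80483863-80484162 (minus strand) and Pdk1 at chr3:77113264-77113563 (plus strand). Capitals mark matches, on either strand, to 7 short motifs described after the sequences.
Pdk4: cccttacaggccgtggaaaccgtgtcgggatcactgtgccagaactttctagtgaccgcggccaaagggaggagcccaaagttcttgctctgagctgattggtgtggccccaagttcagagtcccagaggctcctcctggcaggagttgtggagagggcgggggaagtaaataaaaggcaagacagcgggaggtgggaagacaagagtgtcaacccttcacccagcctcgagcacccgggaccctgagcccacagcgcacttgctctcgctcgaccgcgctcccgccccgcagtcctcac
Pdk2: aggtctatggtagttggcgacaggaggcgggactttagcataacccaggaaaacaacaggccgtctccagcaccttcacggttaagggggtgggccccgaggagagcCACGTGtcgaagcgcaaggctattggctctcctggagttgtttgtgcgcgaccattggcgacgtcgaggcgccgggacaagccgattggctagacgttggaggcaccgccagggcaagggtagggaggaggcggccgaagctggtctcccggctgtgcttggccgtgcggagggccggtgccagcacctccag
Pdk1: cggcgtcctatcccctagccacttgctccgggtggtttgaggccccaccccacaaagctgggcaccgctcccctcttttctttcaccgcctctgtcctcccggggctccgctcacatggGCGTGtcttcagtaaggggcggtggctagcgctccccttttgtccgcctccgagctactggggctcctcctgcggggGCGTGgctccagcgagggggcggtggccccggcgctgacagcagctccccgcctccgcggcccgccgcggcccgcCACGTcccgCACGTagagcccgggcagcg
The motifs searched were the nuclear receptor half-site AGGTCA, a direct repeat of that half-site with 1 base (N) between the copies, of the PPAR type, the forkhead motif GTAAACA, the hypoxia response cores ACGTG and GCGTG, the E-box CACGTG and the glucocorticoid element made of AGAACA, any 3 bases and the reverse complement of AGAACA. The E-box contains ACGTG on both strands, so each E-box is also counted as that core. Among 33469 RefSeq promoters of the same length, AGGTCA was present in 16.2%, the direct repeat in 0.0538%, GTAAACA in 3.78%, ACGTG in 19.3%, GCGTG in 29.7%, the E-box in 6.42% and the glucocorticoid element in 0.0149%. The Pdk4 window held none of the 7 motifs. The Pdk2 window held a single E-box starting at position -143 from the gene start. The Pdk1 window held GCGTG at -131 and -54 and ACGTG, on the opposite strand, at 22 and 31. These are matches of letters within a short window and carry no information on binding.

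Libraries held 14285914 to 25048521 counts, and OGD replicate 1 stood furthest from its partners (chi-square per degree of freedom over genes 22.3 and 28.4, against 6.17 between the other OGD replicates). Nothing states that replicates came from separate cultures, so a p-value here reflects the spread among these libraries alone, which could be technical. The cells were labelled as neurons, and their neuron markers differed between groups. The marker calls below are for OGD against control, where 73.1% of all tested genes were called (36.3% higher and 36.8% lower). Summed over 12 neuron markers, FPKM (reads scaled by gene length and library size) was 602 to 798 in OGD + W/R libraries and 608 to 826 in OGD libraries, against 3501 to 3710 in controls, and 12 of 12 were called lower after OGD. The summed FPKM of 11 astrocyte markers was 6542 to 6839 in OGD + W/R and 7029 to 7681 in OGD, against 2930 to 3103 in controls, with 9 called higher and 1 lower. The 9 microglia markers found, of 10 listed, summed to 23.3 to 27 FPKM in OGD + W/R and 22.2 to 24.2 FPKM in OGD. In controls they summed to 3.53 to 5.74 FPKM, and 7 of 7 tested were called higher. Of these, Aif1, Csf1r, Cx3cr1 and Tyrobp averaged only 0.13 to 0.31 FPKM in controls. They may have passed the filter on low counts through the OGD libraries, so being tested and being called higher may not be independent for them. Markers of the oligodendrocyte lineage summed to 1064 to 1153 FPKM in OGD + W/R and 1103 to 1112 FPKM in OGD, against 436 to 522 FPKM in controls, with 6 called higher and 3 lower of 10. Markers of mural cells and fibroblasts summed to 638 to 758 FPKM in OGD + W/R and 669 to 884 FPKM in OGD, against 92.4 to 116 FPKM in controls, with 3 called higher and 2 lower of 6 tested. Tagln made up most of that sum, averaging 684 FPKM in OGD + W/R and 749 FPKM in OGD, against 96.8 FPKM in controls. Dcn and Lum were the 2 lower, averaging 0.29 and 0.11 FPKM in OGD, against 1.16 and 0.88 FPKM in controls. Col1a1 was not called. Endothelial markers summed to 1.28 to 1.63 FPKM in OGD + W/R and 1.41 to 1.92 FPKM in OGD. Controls had 0.35 to 0.51 FPKM, and Cldn5 was at 0. Most of this low sum was Kdr, averaging 1.27 FPKM in OGD + W/R and 1.35 FPKM in OGD, against 0.31 FPKM in controls. Only Kdr and Tek were tested, and both were called higher. Tek averaged 0.187 FPKM in OGD and 0.0467 FPKM in controls, so it may have passed the low-count filter through the OGD libraries. Cdh5 (0.03 FPKM in OGD, 0.04 FPKM in controls) and Flt1 (0.0267 and 0.0133 FPKM) were too low to be tested. The part of this shift in the results on the 10 genes was not tested, and in bulk RNA fewer cells of a type and less RNA per cell cannot be told apart.

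In the control cultures the E1 genes and Mpc1 were the most abundant of the set and Pdk4 the least. On the FPKM scale the order of the control means was Pdha1, Mpc1, Pdhb, Pdk1, Pdk2, Pdk3, Pdp1, Mpc2, Pdp2 and Pdk4. The ranges of Pdp1 and Mpc2 overlapped, as did those of Mpc2 and Pdp2. After OGD, with or without the proteins, the order was Pdha1, Pdhb, Mpc1, Pdk2, Pdk4, Pdk1, Mpc2, Pdk3, Pdp1 and Pdp2, so that Pdk4 stood above Pdk1. Pdk2 and Pdk4 overlapped in both OGD groups, and so did Mpc2 and Pdk3. In OGD alone Mpc1 overlapped with Pdk2, and Pdk3 with Pdp1.

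**Figure D1:**
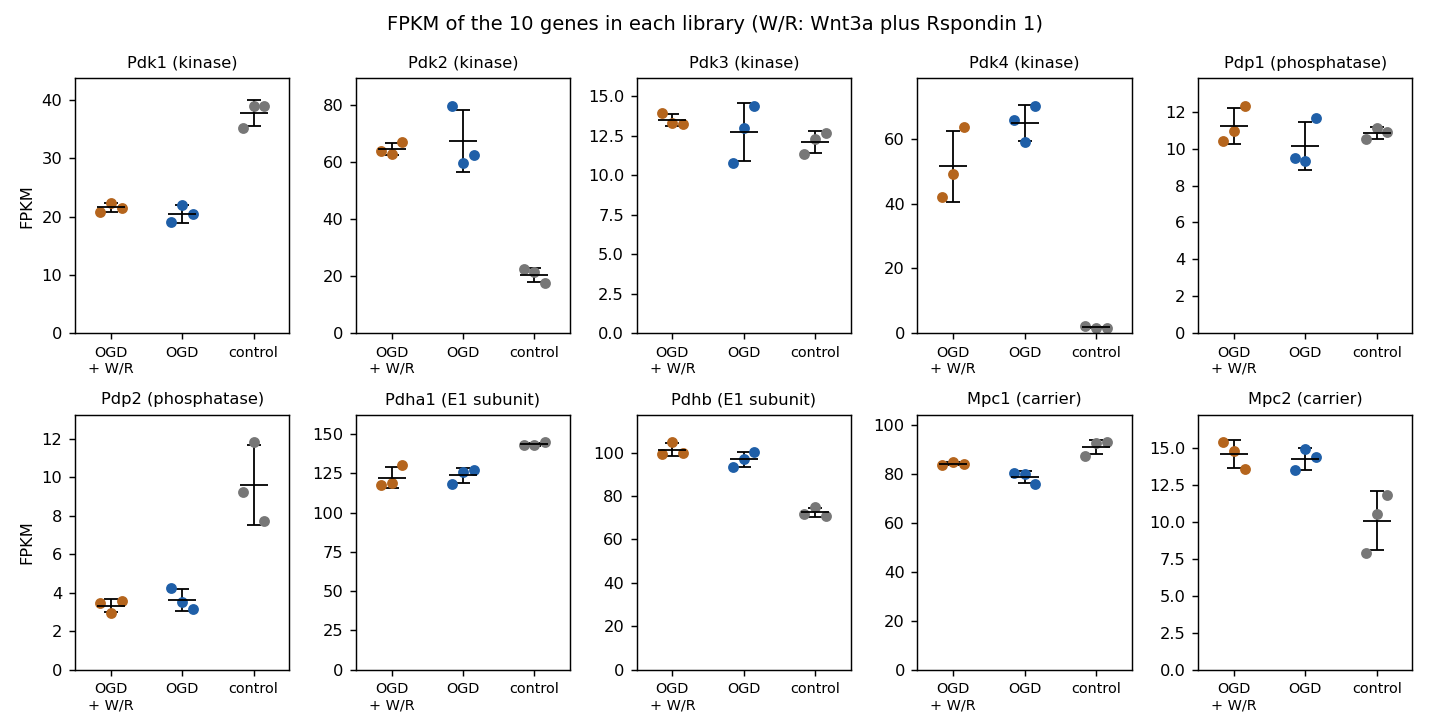
FPKM of each of the 10 genes in every library, with OGD + W/R, OGD and control from left to right; points are libraries, the long bar is the mean and the whiskers are 1 SD (n = 3). Pdk4 lies between 42.0 and 70.3 FPKM in the 6 OGD libraries and between 1.55 and 2.06 FPKM in controls, while Pdk3 and Pdp1 overlap between OGD and control.

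Of the 10 genes, 4 were higher in every OGD library than in every control library (Pdk2, Pdk4, Pdhb and Mpc2), 4 were lower (Pdk1, Pdp2, Pdha1 and Mpc1), and Pdk3 and Pdp1 overlapped. Over all 13693 genes tested the normalised counts of OGD and control did not overlap for 75.1% (37% higher and 38.1% lower), and since the set was chosen on this comparison its count is a description only. The median log2 change of the 10 genes was -0.11, against 0.02 over all genes tested, and the median of its absolute size was 0.38 against 0.63.

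The kinases differed from control in different directions. Pdk4 (ENSRNOG00000009565) had 42.0, 49.2 and 63.6 FPKM in OGD + W/R replicates 1 to 3 and 65.7, 59.1 and 70.3 FPKM in OGD, against 2.06, 1.55 and 1.55 FPKM in controls. The control values rest on 65, 38 and 61 reads, and those after OGD on 1476, 2071 and 1741 reads. Every library exposed to OGD lay far above every control library, and the OGD + W/R libraries spread more widely than the other groups. The log2 difference of OGD from control was 5.15 ± 0.18 (SE), a 35.6-fold difference that ranked 6 among all increases in the tested genes. Because the set was chosen for this rise, its size and rank are a description only.

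Pdk2 (ENSRNOG00000004172) had 63.8, 63.0 and 67.2 FPKM in OGD + W/R and 79.9, 59.8 and 62.6 FPKM in OGD, against 22.4, 21.3 and 17.6 FPKM in controls. All 6 OGD libraries were above the controls, and OGD replicate 1 was the highest of them. Its log2 difference between OGD and control was 1.64 ± 0.13, or 3.11-fold. Pdk1 (ENSRNOG00000001517) went the other way, with 20.83, 22.37 and 21.48 FPKM in OGD + W/R and 19.02, 21.96 and 20.38 FPKM in OGD, against 35.19, 39.00 and 39.04 FPKM in controls. The control libraries lay apart above the 6 others, which were close together. The log2 difference of OGD from control was -0.97 ± 0.08, or 0.512-fold.

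Pdk3 (ENSRNOG00000012513), a kinase known for binding tightly to the lipoyl domain of the complex's core, had 13.9, 13.3 and 13.2 FPKM in OGD + W/R and 10.8, 13.0 and 14.4 FPKM in OGD, against 11.3, 12.3 and 12.6 FPKM in controls. OGD overlapped with each of the other groups. OGD + W/R lay just above the controls in FPKM, although their normalised counts overlapped. OGD differed from control by a log2 of -0.02 ± 0.10, and its sign depended on the scaling of the libraries.

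The phosphatases also parted. Pdp2 (ENSRNOG00000012343), an isoform known to respond little to calcium, had 3.48, 2.97 and 3.55 FPKM in OGD + W/R and 4.23, 3.50 and 3.15 FPKM in OGD, against 9.24, 11.8 and 7.72 FPKM in controls. No OGD library reached the lowest control, and the controls varied more among themselves than the OGD libraries did. OGD differed from control by a log2 of -1.48 ± 0.17, or 0.358-fold. Pdp1 (ENSRNOG00000016180), the calcium-sensitive isoform, had 10.42, 10.95 and 12.33 FPKM in OGD + W/R and 9.49, 9.32 and 11.66 FPKM in OGD, against 10.5, 11.1 and 10.9 FPKM in controls. These ranges overlapped, and the log2 difference of OGD from control was -0.20 ± 0.11.

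The E1 subunits, which pair in equal numbers in the enzyme, differed in opposite directions by small amounts. Pdha1 (ENSRNOG00000025383) had 117.51, 119.07 and 130.08 FPKM in OGD + W/R and 118.43, 126.01 and 127.11 FPKM in OGD, against 142.80, 142.95 and 144.64 FPKM in controls. Pdhb (ENSRNOG00000007895) had 99.4, 105 and 99.7 FPKM in OGD + W/R and 93.3, 97.0 and 100 FPKM in OGD, against 71.6, 74.8 and 71.0 FPKM in controls. In each gene the controls were separate from the 6 OGD libraries, below them for Pdhb and above them for Pdha1. The log2 differences of OGD from control were -0.34 ± 0.09 for Pdha1 and 0.33 ± 0.07 for Pdhb. The ratio of Pdhb to Pdha1 FPKM was 0.83 ± 0.0582 in OGD + W/R and 0.783 ± 0.0112 in OGD, against 0.505 ± 0.0165 in controls (SD, n = 3 each). The gene length implied by count and FPKM ranged from 1929 to 2312 bases among libraries for Pdha1, so its FPKM and its counts do not scale alike.

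The carrier subunits, which are known to be unstable without each other, likewise differed in opposite directions. Mpc1 (ENSRNOG00000012415) had 83.8, 84.7 and 84.0 FPKM in OGD + W/R and 80.5, 80.0 and 75.8 FPKM in OGD, against 87.5, 92.4 and 92.8 FPKM in controls. Mpc2 (ENSRNOG00000003150) had 15.39, 14.84 and 13.56 FPKM in OGD + W/R and 13.49, 14.97 and 14.38 FPKM in OGD, against 7.90, 10.51 and 11.85 FPKM in controls. Controls were the highest libraries for Mpc1 and the lowest for Mpc2, where the lowest OGD values came close to the highest control. The Mpc2 values rest on 61 to 128 reads per library, the fewest of the set beside Pdk4 in controls. The log2 differences of OGD from control were -0.29 ± 0.07 for Mpc1 and 0.42 ± 0.17 for Mpc2.

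Summed per library, kinase messages were more abundant and phosphatase messages less abundant after OGD. The 4 kinases summed to 151 ± 12.8 FPKM in OGD + W/R and 166 ± 10.9 FPKM in OGD, against 72 ± 1.88 FPKM in controls (SD, n = 3 each). Without Pdk4 the sums were 99.7 ± 1.91 FPKM in OGD + W/R and 101 ± 7.96 FPKM in OGD, against 70.3 ± 2.03 FPKM in controls, so the sum of the other kinases was also higher. The 2 phosphatases summed to 14.6 ± 1.14 FPKM in OGD + W/R and 13.8 ± 0.997 FPKM in OGD, against 20.4 ± 2.24 FPKM in controls. The ratio of the kinase sum to the phosphatase sum was 10.1, 10.6 and 10.4 in OGD + W/R replicates 1 to 3 and 12.8, 12 and 11.3 in OGD, against 3.59, 3.23 and 3.80 in controls. Each group occupied its own range, with controls lowest and OGD alone highest.

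The make-up of the kinase messages differed as well. Pdk1 made up 14.3% ± 1.16 of the summed kinase FPKM in OGD + W/R and 12.4% ± 1.73 in OGD, against 52.4% ± 2.78 in controls, where it was the leading kinase. Pdk2 led in both OGD groups, at 42.9% ± 2.41 in OGD + W/R and 40.6% ± 4.37 in OGD, against 28.4% ± 3.39 in controls, although in OGD replicate 3 the share of Pdk4 was the larger. Pdk4 made up 33.8% ± 4.31 in OGD + W/R and 39.3% ± 2.33 in OGD, against 2.39% ± 0.443 in controls. Pdk3 made up 8.97% ± 0.957 in OGD + W/R and 7.72% ± 1.38 in OGD, against 16.8% ± 0.971 in controls. Of the phosphatase messages, Pdp1 made up 77.1% ± 1.91 in OGD + W/R and 73.5% ± 4.83 in OGD, against 53.5% ± 5.03 in controls. All these shares are relative and describe FPKM of genes chosen on the same comparison.

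**Figure D2:**
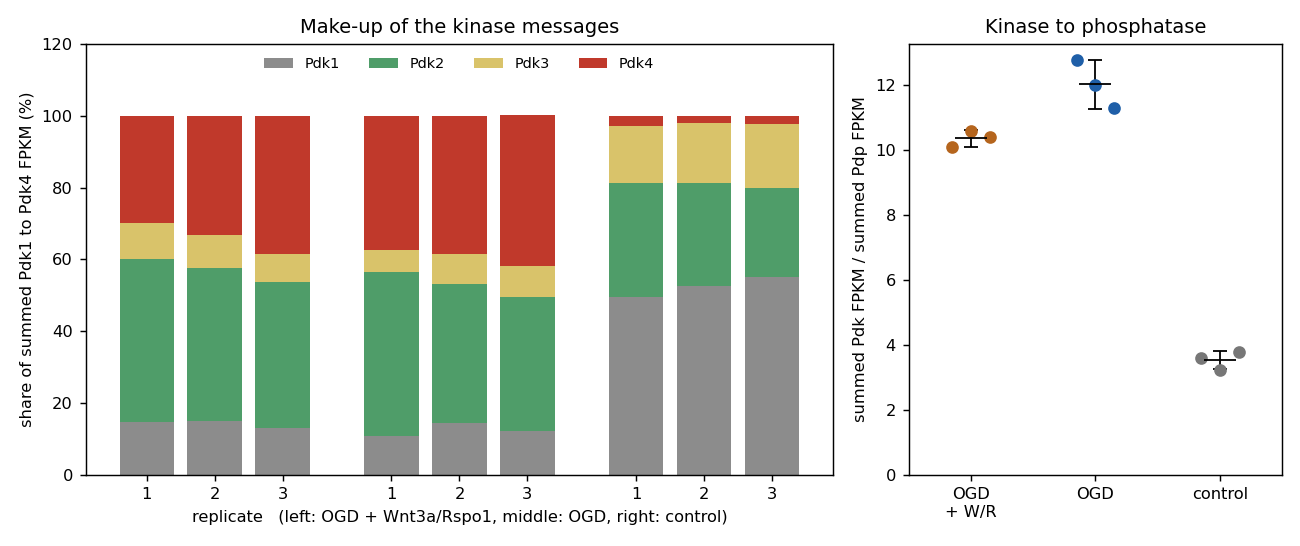
Left, share of each kinase gene in the summed Pdk1 to Pdk4 FPKM (percent) in every library, with OGD + W/R, OGD and control from left to right; Pdk4 takes 33.8% on average in OGD + W/R and 39.3% in OGD, against 2.39% in controls. Right, ratio of summed kinase FPKM to summed Pdp1 and Pdp2 FPKM, with libraries as points, means as bars and 1 SD as whiskers; no control library is above 3.80, and no OGD library is below 10.1.

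The comparison of OGD + W/R with OGD asks whether expression in the bulk RNA of these cultures differed with Wnt3a plus Rspondin 1 under OGD. The choice of genes did not use the OGD + W/R libraries, but it did rest on high Pdk4 values in the same OGD libraries that serve as the reference here. None of the 10 was called at an adjusted p under 0.05 in the edgeR quasi-likelihood test, with p-values adjusted by the Benjamini-Hochberg method over all tested genes, and none was called by DESeq2. Over all genes 0.197% were called (24 higher and 3 lower of 13693). At an unadjusted p under 0.05 stood 1 of the 10, Pdk4, against 5.73% of all genes. The median absolute log2 change was 0.07 among the 10 genes and 0.09 among all tested genes.

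Pdk4 had the largest estimate of the 10. Its 42.0, 49.2 and 63.6 FPKM in OGD + W/R overlapped with the 65.7, 59.1 and 70.3 FPKM in OGD through OGD + W/R replicate 3, and replicates 1 and 2 were below every OGD library. Because Pdk4 was picked for its high level in these OGD libraries, its difference from them is not independent of that choice. The log2 difference of OGD + W/R from OGD was -0.36 ± 0.13 (95% interval -0.64 to -0.07), with an unadjusted p of 0.0196 and an adjusted p of 0.678 in edgeR's quasi-likelihood test. It was -0.53 without OGD + W/R replicate 3 and -0.23 without replicate 1 of that group, and the adjusted p ran from 0.275 to 0.999 over 17 alternatives. The authors' deposited table gives Pdk4 a log2 ratio of -0.3347 for this comparison, with an FDR of 0.824.

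Mpc1 was the only gene of the 10 whose normalised counts in OGD + W/R and OGD did not overlap, which held for 9.57% of all genes (4.73% in the direction of a higher value). All 3 OGD + W/R libraries were above the OGD libraries. The log2 difference of OGD + W/R from OGD was 0.08 ± 0.07 (95% interval -0.07 to 0.22), with an adjusted p of 0.976 in edgeR's quasi-likelihood test.

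For the remaining 8 genes the estimates lay between -0.14 and 0.12, with adjusted p of at least 0.976 in edgeR's quasi-likelihood test. Among the kinases the 95% intervals were -0.13 to 0.24 for Pdk1, -0.34 to 0.18 for Pdk2 and -0.16 to 0.29 for Pdk3. For the phosphatases they were -0.11 to 0.35 for Pdp1 and -0.53 to 0.25 for Pdp2. They were -0.16 to 0.22 for Pdha1, -0.09 to 0.19 for Pdhb and -0.34 to 0.36 for Mpc2. With 3 libraries per group, changes of any size inside these limits remain possible. The widest intervals belonged to Pdp2 and Mpc2, 2 genes with few reads. The Pdk2 estimate of -0.08 ± 0.12 became 0.07 without OGD replicate 1.

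The kinase to phosphatase ratio was 10.4 ± 0.257 in OGD + W/R and 12 ± 0.73 in OGD (SD, n = 3 each), and these groups did not overlap. The log2 difference of the ratio was -0.211, and -0.167 without OGD replicate 1. With Pdk4 left out of the kinase sum the groups overlapped, at a log2 ratio of 2.68 to 2.83 in OGD + W/R and 2.72 to 3 in OGD. The Pdk4 share differed by -5.42 percentage points between OGD + W/R and OGD, with ranges of 29.9% to 38.4% in OGD + W/R and 37.5% to 41.9% in OGD that overlapped. That difference was -3.43 points without OGD + W/R replicate 1 and -7.71 points without replicate 3 of that group. No p is given for these summaries, since they combine genes picked with results known, and an exact permutation of 3 against 3 libraries cannot go below 0.1. Among the astrocyte markers Gja1 was higher in OGD + W/R than in OGD (0.38 on the log2 scale, adjusted p = 0.0404) and Glul was lower (-0.59, adjusted p = 0.00293) in edgeR's quasi-likelihood test, and no neuron marker was called. The Gja1 call was lost in 10 of 17 alternatives (adjusted p up to 0.231), among them leaving out any single library other than OGD replicate 1, and the Glul call in none.

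**Figure D3:**
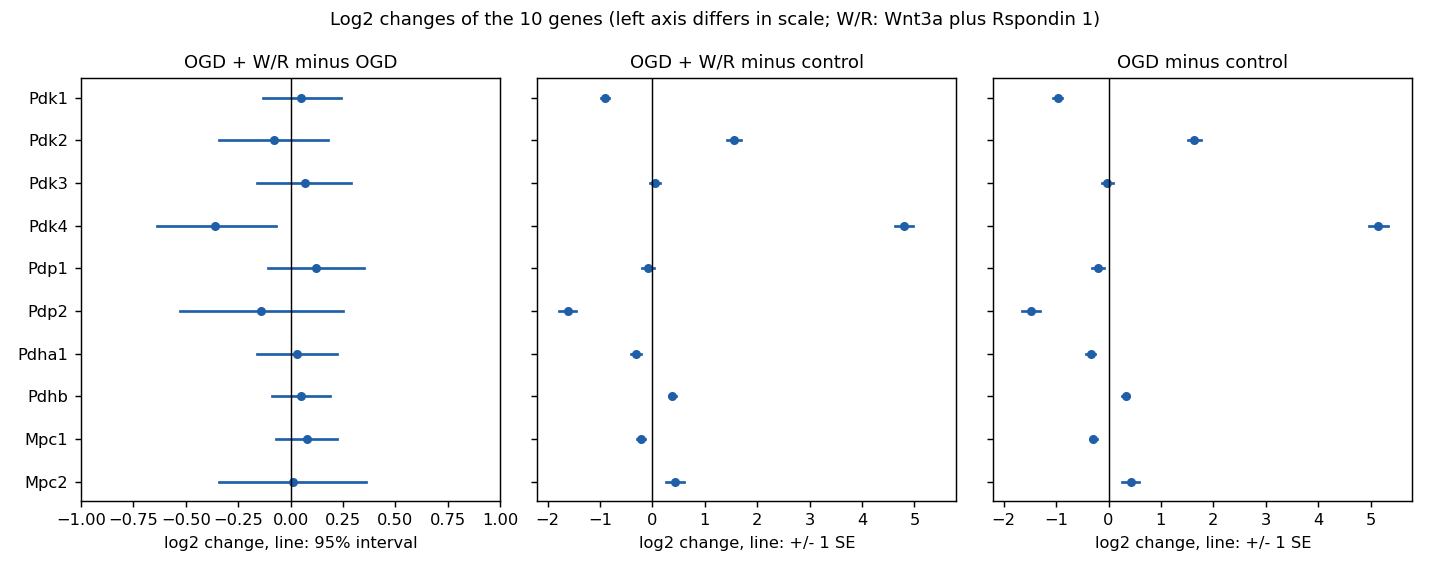
Log2 changes of the 10 genes for OGD + W/R minus OGD (left, lines are 95% intervals), OGD + W/R minus control (middle) and OGD minus control (right, lines are 1 SE in both). On the left every estimate except that of Pdk4 (-0.36) lies between -0.14 and 0.12; the right and middle panels share the control libraries and are shown as description.

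Against the same controls, the OGD + W/R cultures had log2 differences of 4.80 ± 0.18 for Pdk4, 1.56 ± 0.13 for Pdk2, -0.91 ± 0.08 for Pdk1 and 0.05 ± 0.10 for Pdk3. The differences were -1.62 ± 0.17 for Pdp2 and -0.08 ± 0.11 for Pdp1. They were -0.31 ± 0.09 for Pdha1, 0.38 ± 0.07 for Pdhb, -0.22 ± 0.07 for Mpc1 and 0.43 ± 0.17 for Mpc2. In normalised counts, 4 genes were separate above and 4 separate below the controls, beside 78.7% of all genes whose ranges did not overlap (39.8% higher and 38.9% lower). Because the controls are shared with the comparison that chose the genes, no test is attached and the values stand side by side with those of OGD alone.

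Around the 10 genes, lists of the pathway's other parts were counted for OGD against control, where 73.1% of all tested genes were called (36.3% higher and 36.8% lower). These lists were drawn up with earlier results known. Of the rest of the complex, Dlat, the acetyltransferase core, fell to 27 ± 2.2 FPKM in OGD, against 31 ± 1.11 FPKM in controls (log2 change -0.29 ± 0.08). Pdhx, which anchors the dihydrolipoyl dehydrogenase, fell to 28.7 ± 2.28 FPKM in OGD, against 33.6 ± 0.624 FPKM in controls (-0.31 ± 0.07). Pdpr, a regulatory subunit of the phosphatase, rose to 18.8 ± 1.14 FPKM in OGD, against 13.2 ± 0.836 FPKM in controls (0.42 ± 0.09). Adjusted p was 0.00397 for Dlat, 0.0022 for Pdhx and 0.000707 for Pdpr in edgeR's quasi-likelihood test. Dld, the dehydrogenase shared with other complexes, had 40.8, 65.9 and 55.9 FPKM in OGD, against 35.8, 40.4 and 45.0 FPKM in controls. Its groups overlapped through OGD replicate 1 (log2 change 0.34 ± 0.14, adjusted p = 0.0394 in edgeR's quasi-likelihood test), and the call was lost in 7 of 17 alternatives, among them leaving out control replicate 1 or 2, OGD replicate 2 or 3, or OGD + W/R replicate 2 (adjusted p up to 0.21).

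Genes for the lipoate and thiamine cofactors were mixed, with 5 of 11 tested higher and 2 lower after OGD (median log2 change 0.03, against 0.02 over all tested genes). Iba57, an iron-sulfur cluster assembly factor, rose by 1.31 ± 0.13 to 5.99 ± 0.954 FPKM in OGD, against 2.28 ± 0.148 FPKM in controls. Bola3, needed for lipoylation, rose by 1.01 ± 0.14. Slc19a2, a thiamine transporter, fell by 0.67 to 3.71 ± 0.32 FPKM in OGD, against 5.53 ± 0.389 FPKM in controls. Nfu1, another cluster carrier, was lower by a log2 change of -0.24 ± 0.09 (adjusted p = 0.0259 in edgeR's quasi-likelihood test). That call was lost in 9 of 17 alternatives, among them scaling by library totals and leaving out any control library or OGD replicate 2 or 3 (adjusted p up to 0.13).

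Among genes of pyruvate supply and its other fates, 8 of 13 tested were higher and 4 lower after OGD, with a median log2 change of 0.52. The lactate and pyruvate transporters of the plasma membrane diverged. Slc16a1 (MCT1) rose by 1.40 ± 0.10 to 72.2 ± 10.4 FPKM in OGD, against 25.7 ± 2.3 FPKM in controls. Slc16a3 (MCT4) fell to 0.22 ± 0.0557 FPKM in OGD, against 10.5 ± 0.468 FPKM in controls, a log2 change of -5.59 ± 0.24. With OGD values so near 0 its size is uncertain, and it ran from -5.83 to -3.24 over 17 alternatives. Slc16a7 (MCT2), the high-affinity transporter of neurons, fell to 1.02 ± 0.859 FPKM in OGD, against 7.42 ± 1.06 FPKM in controls (-2.97 ± 0.41). Gpt2, which interconverts pyruvate and alanine in mitochondria, rose by 1.66 ± 0.10 to 121 ± 13.9 FPKM in OGD, against 36.1 ± 1.6 FPKM in controls. In the citrate cycle 12 of 16 tested genes were higher and 1 lower (median 0.44), with Suclg2 at 1.45 ± 0.07, Idh2 at 0.99 ± 0.08 and Idh3a at -0.33 ± 0.07. Of 17 tested genes listed under mitochondrial mass, 9 were higher and 2 lower (median 0.37), with Hspe1 at 0.95 ± 0.19, Slc25a5 at 0.83 ± 0.07, Tomm20 at -0.69 ± 0.08 and Vdac1 at -0.34 ± 0.06. Mitochondrial mass itself was not measured.

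Fatty acid oxidation, the route whose products act on the kinases, had 19 of 24 tested genes higher and 3 lower after OGD, with a median log2 change of 1.32. Cpt2, of the carnitine shuttle, rose by 2.22 ± 0.09 to 41.6 ± 3.14 FPKM in OGD, against 8.44 ± 0.555 FPKM in controls. Acsl1, an acyl-CoA synthetase, fell to 11.2 ± 0.956 FPKM in OGD, against 19.1 ± 0.789 FPKM in controls, and Bdh1, which interconverts the ketone bodies, fell by 0.54 on the log2 scale.

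Of 10 tested genes known to be induced through PPAR receptors outside oxidation itself, 9 were higher and 1 lower (median 2.35), and Cyp4a1 was listed at 0. Cidec, Fgf21, Vnn1 and Creb3l3 averaged at most 0.313 FPKM in any group and were too low to be tested. Angptl4, a secreted inhibitor of lipoprotein lipase, rose by 4.77 ± 0.17 to 234 ± 21.1 FPKM in OGD, against 8.02 ± 1.94 FPKM in controls. Ucp3, a mitochondrial carrier of muscle, had 25, 22 and 14 reads in OGD and 0 in every control library, at least 7.43-fold higher when each control library is set to a floor of 3 counts. The median of the list was 2.35 with that bound as well. With no control reads, Ucp3 passed the filter on low counts through the OGD libraries alone. Its place among the 9 higher was thus set by the filter. Fabp3, a fatty acid binding protein, fell by 0.72 to 66.1 ± 8.73 FPKM in OGD, against 102 ± 4.91 FPKM in controls.

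Of 14 tested transcription factors and coactivators listed as acting on Pdk genes, 9 were higher and 2 lower after OGD (median 0.70). Foxo4 rose by 2.30 ± 0.10 to 19.8 ± 1.59 FPKM in OGD, against 3.74 ± 0.243 FPKM in controls, and Rxra, the partner of PPAR receptors, rose by 1.54 ± 0.13. The coactivator Ppargc1b fell by 1.14 to 0.777 ± 0.199 FPKM in OGD, against 1.64 ± 0.145 FPKM in controls, and the orphan receptor Esrrg fell by 1.07. Adjusted p values of the list genes named for OGD against control, other than those printed above, were at most 0.00103 in edgeR's quasi-likelihood test. These counts come from libraries in which tested neuron markers were lower after OGD (median log2 change -2.60) and tested astrocyte and microglia markers higher (1.22 and 2.29). The microglia median carries the limit of the filter given above, and the part of those cells in the counts was not tested.

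**Figure D4:**
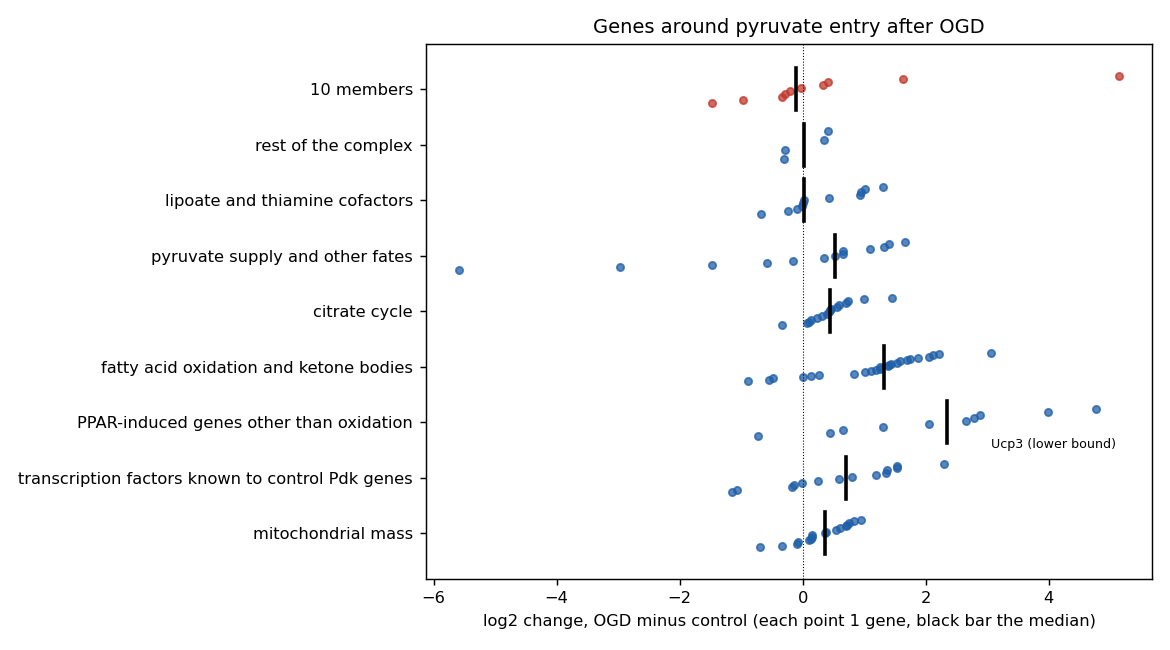
Log2 change of OGD minus control for the 10 genes (top row) and for the tested genes of 8 lists around pyruvate entry, 1 point per gene, with the median as a black bar; Ucp3 is drawn at its lower bound. List medians run from 0.03 in the rest of the complex and the cofactor genes to 2.35 in the PPAR-induced genes, and Pdk4 at 5.15 is the rightmost point.

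Across the 109 tested genes of these 8 lists, Foxo1 was the only gene called between OGD + W/R and OGD. Foxo1, a forkhead factor known to act on the Pdk4 gene in liver and muscle, had 28.03, 25.04 and 28.60 FPKM in OGD + W/R. It averaged 18.8 ± 1.18 FPKM in OGD (SD, n = 3, highest library 20.12), against 6.87 ± 0.427 FPKM in controls (n = 3). The groups were separate, with OGD + W/R highest. The log2 change of OGD + W/R from OGD was 0.52 ± 0.09 (adjusted p = 0.0404 in edgeR's quasi-likelihood test). The estimate ran from 0.48 to 0.58 over 17 alternatives, and the call was lost in 11 of them (adjusted p up to 0.246), which include leaving out any single library other than OGD replicate 1.

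The genes whose profiles over the 9 libraries lay nearest to those of Pdk4, Pdk1 and Pdk2 were found by the root mean square distance between centred log2 CPM values (counts scaled to a common library size) among 11830 genes. Among the nearest to Pdk4 were Angptl4 (distance 0.25), Bmf (0.35), Lgals3 (0.54) and Mt1 (0.62). Bmf, a pro-apoptotic BH3-only protein, averaged 51.7 FPKM in OGD + W/R and 53.5 FPKM in OGD, against 2.44 FPKM in controls. The galectin Lgals3 averaged 307 FPKM in OGD + W/R and 336 FPKM in OGD, against 18.3 FPKM in controls. The metallothionein Mt1 averaged 457 FPKM in OGD + W/R and 622 FPKM in OGD, against 38.2 FPKM in controls. Pdk1 had much closer neighbours, with distances of 0.04 for Nop56, 0.05 for Tpm3 and 0.05 for Pcdh18, and Pdk2 had Slc25a42 (0.06), Rbms2 (0.08) and Uap1l1 (0.08). Slc25a42, a mitochondrial carrier of coenzyme A, averaged 46 FPKM in OGD + W/R and 47.4 FPKM in OGD, against 14.2 FPKM in controls.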

How the data were processed

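Bulk RNA-seq libraries from 9 samples of rat primary cortical neurons were compared as 3 groups of 3, matched by column names and sample titles. The authors deposited whole-number counts per gene, not normalized, and FPKM (counts scaled by gene length and library total), per the file headers; their deposited log2 ratios, p-values and FDR come from a test not given in the sources used here. Bowtie 0.12.2 and, although the samples are rat, the mouse genomes mm8 and mm9 are listed in the submitters' processing notes. Which aligner, rat build, annotation and strand setting produced the tables is not stated there; reads of overlapping or antisense genes cannot be told apart.

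Counts were fitted with edgeR 4.0.16 (R 4.3.3; TMM scaling; filterByExpr with a minimum count of 10 and minimum total of 15; 1 robust quasi-likelihood fit of all 9 libraries with 3 group means and 6 residual degrees of freedom), with Benjamini-Hochberg adjustment across 13693 tested genes and a threshold of 0.05. The common biological coefficient of variation was 10.3%. A prior count of 0.125 entered the log2 changes and of 2 the log2 CPM behind profile distances. Intervals are at 95%. Alternatives were other scalings, no filter, DESeq2 1.42.0, limma 3.58.1 on log2 FPKM, only the 6 libraries compared, a replicate block and each library left out. The fit was tested on simulated data. Totals of 14285914 to 25048521 counts give a floor of 3 counts for a gene at 0, which covers counting error only.

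The 10 genes, the lists, the tests and the naming rule were chosen with earlier results of these data known. Named beside the 10 genes are all 4 genes of the rest of the complex, the 2 largest called rises and 2 largest called falls of each list, list genes called between the 2 OGD groups, and the nearest profiles (5 for Pdk4, 3 each for Pdk1 and Pdk2) among tested genes that average 1 FPKM or more in some group. Of the genes this rule gives, 2 are not reported here.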

Additional observations from a re-analysis of the deposited data

How the results depend on the processing

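The 10 genes kept their uncalled status between OGD + W/R and OGD under all 17 alternatives. Signs near 0 turned for 4 of them. Without OGD replicate 1 the log2 change was 0.07 for Pdk2, -0.03 for Pdk3, -0.07 for Pdha1 and -0.02 for Mpc2; with each library left out in turn, the ranges were -0.16 to 0.07 for Pdk2, -0.03 to 0.15 for Pdk3, -0.07 to 0.09 for Pdha1 and -0.03 to 0.06 for Mpc2. Pdha1 was at -0.02 without OGD + W/R replicate 3 and with limma at either pseudocount (1 or 0.1), and Mpc2 at -0.004 with RLE size factors or DESeq2, -0.03 without OGD + W/R replicate 1 and -0.002 without replicate 2. Counts over all genes between OGD + W/R and OGD (24 higher, 3 lower) were 60 higher and 39 lower with DESeq2, 12 higher with only the 6 libraries compared, 5 lower with RLE size factors and 7 lower without the filter, and 10 to 38 higher and 2 to 11 lower when a library was left out. Foxo1's list had 0 called with RLE size factors, with the 6 libraries and with limma at 0.1, and 0 to 1 when a library was left out. The fatty acid list had 1 called lower with DESeq2. After OGD, the rest of the complex had 1 called higher without the filter and with 6 libraries (1 to 2 with a library left out). The cofactor list had 1 called lower with library totals, 6 libraries or limma at either pseudocount (1 to 2 with a library left out).

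The labels do not say that replicate numbers pair the samples, and not every same-numbered pair correlated above 0.1. Between the 2 OGD groups, deviations of same-numbered libraries correlated at 0.232, 0.073 and 0.267 and those of differently numbered libraries at -0.238 to -0.024. Each library there correlated best with its own number, a hint from the data and not from the design. Deviations are centred within each group, so positive values for some pairs bring negative ones for others. With controls, same-numbered libraries correlated at 0.273, -0.055 and 0.105 for OGD and 0.067, -0.069 and 0.003 for OGD + W/R. OGD replicate 2 correlated best with control replicate 3 (0.278). With a replicate block, 43 genes were higher and 22 lower between OGD + W/R and OGD, none of the 10 genes among them (Pdk4 adjusted p = 0.356 with edgeR). Scaling by library totals moved the median of all genes by 0.09 for OGD against control and by 0.11 for OGD + W/R against control, and the sign turned with the alternative for Pdk3 after OGD (-0.10 to 0.08) and for Pdp1 in OGD + W/R against control (-0.13 to 0.05). Over all alternatives the log2 difference of OGD from control ran from 4.60 to 5.31 for Pdk4, 1.49 to 1.72 for Pdk2, -1.02 to -0.85 for Pdk1 and -1.62 to -1.18 for Pdp2; the smallest sizes came from limma on log2(FPKM + 1) for Pdk4, Pdk1 and Pdp2. The causes of these shifts were not tested. With 3 libraries per group, a gene not called between OGD + W/R and OGD may still have changed by any amount inside its interval.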
